A study of Mus musculus with 16 samples.

Results

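The genes described here are 10 genes of the glycolytic pathway in erythroblasts: *Hk1*, *Gpi1*, *Pfkl*, *Aldoa*, *Tpi1*, *Gapdh*, *Pgam1*, *Pklr* and *Ldha*, which encode enzymes that turn glucose into lactate, and *Bpgm*, which encodes bisphosphoglycerate mutase. They were chosen by symbol, and each matched 1 of the 46078 genes listed for every library. RNA was sequenced from polychromatic (Poly-E) and orthochromatic (Ortho-E) erythroblasts, sorted from steady-state bone marrow by Ter119 and CD44, with 4 libraries in each of 4 groups. The groups were *Ypel4*+/+ Poly-E, *Ypel4*-/- Poly-E, *Ypel4*+/+ Ortho-E and *Ypel4*-/- Ortho-E. The labels give all mice the same strain entry, C57BL/6N-A<tm1Brd>, followed by the allele and source Ypel4<tm1a(EUCOMM)Wtsi>/WtsiIeg, with the genotype entries wild-type and homozygous mutant. The mutant allele is a conventional trap allele with an *En2* splice acceptor and a LacZ cassette, and is not limited to erythroid cells. No treatment, sex or age is given for the libraries.

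Mature red cells have no mitochondria and make their ATP by glycolysis. They also divert part of the flux through a side path, in which *Bpgm* makes 2,3-bisphosphoglycerate, the metabolite that lowers the oxygen affinity of hemoglobin. Poly-E cells are still building their content of hemoglobin, and Ortho-E cells are the last nucleated stage.

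Depth ranged from 2670173 to 12451234 counts per library. *Ypel4* itself was called in both populations, lower in the mutants: its level was 577 ± 105 CPM (SD, n = 4) for *Ypel4*+/+ and 15.9 ± 5.695 CPM in *Ypel4*-/- Poly-E, and 4966 ± 507 CPM in *Ypel4*+/+ and 205 ± 22.5 CPM in *Ypel4*-/- Ortho-E. CPM is the usual depth-scaled count, computed here with edgeR's TMM scaling over the 16 libraries. The defining markers of erythroid cells were present in every group, with a summed level of the 7 markers from 33591 to 40294 CPM in Poly-E and from 116048 to 152480 CPM in Ortho-E. The 5 B cell markers summed to between 23.6 and 75.6 CPM, the 8 myeloid markers to between 1.955 and 20.5 CPM and the 4 T cell markers to at most 0.45 CPM. Of the 4 megakaryocyte markers, *Itga2b* and *Gp9* were counted in all groups, at 774 and 401 counts over *Ypel4*+/+ Poly-E. *Pf4* and *Ppbp* had at most 1 count in 15 of the libraries, and 5 and 28 counts in *Ypel4*-/- Poly-E replicate 1. The 4 summed to at most 35.6 CPM in Poly-E and 113 CPM in Ortho-E.

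The members are spread over 5 autosomes, and the deposited annotation (GRCm38) gives their positions. *Bpgm* is found on the + strand of chromosome 6 (34476207 to 34505613), and *Tpi1* (124810586 to 124814296) and *Gapdh* (125161715 to 125166467) lie on the − strand of the same chromosome. *Gpi1* (34202122 to 34230289, −), *Aldoa* (126795234 to 126800751, −) and *Ldha* (46841475 to 46855627, +) lie on chromosome 7. *Hk1* (62268855 to 62379908) and *Pfkl* (77986947 to 78010083) lie on the − strand of chromosome 10, *Pklr* on chromosome 3 from 89136142 to 89146784 (+) and *Pgam1* on chromosome 19 from 41911871 to 41918664 (+). Counts were summed over all exons of a gene, and therefore cannot separate its transcripts, such as the red-cell and liver forms of *Pklr*.

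How much of each gene could be counted differed among the members. Reads that align to several places were not counted, and glycolytic genes are known for their many processed pseudogenes. Of the 75-base windows of the longest protein-coding *Gapdh* transcript, 80.3% have an exact copy in a transcript of another annotated gene, 113 of those 121 genes being pseudogenes. The share was 40.6% for *Pgam1*, 22.5% for *Pklr*, 14.8% for *Gpi1*, 5.23% for *Ldha* and at most 2.48% for *Tpi1*, *Hk1* and *Aldoa*, and *Pfkl* and *Bpgm* had no such window. Reads over exons that 2 genes share were not counted either, without regard to strand. The same bases can enter both measures, which therefore do not add up: 22.0% of the exon bases of *Pklr* overlap *Hcn3*, and 16.5% of those of *Gpi1* overlap *Gm26762*. *Gapdh*, *Pgam1*, *Pklr* and *Gpi1* were thus counted from a smaller part of their transcripts than *Bpgm* or *Pfkl*, in every library alike.

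In CPM, *Bpgm* and *Hk1* stood far above the other members in every group. The order below uses CPM per kilobase of all annotated exons of a gene, which is not corrected for windows that could not be counted. This length exceeds the longest protein-coding transcript unequally, with 4133 against 1420 bases for *Gapdh* and 8532 against 4278 for *Hk1*. For *Aldoa* it is 2754 against 1549 bases and for *Pgam1* 1831 against 1775. The order of members with close levels can therefore depend on the length used. With 80.3% of its windows open to loss, *Gapdh* can be understated beside *Hk1* and *Bpgm*, so its distance from them is uncertain. On this scale the mean level in *Ypel4*+/+ Poly-E was 159 for *Bpgm* and 46.4 for *Hk1*, the hexokinase that phosphorylates glucose. The next members were *Gapdh* at 4.53, *Aldoa* (aldolase A) at 4.38, *Tpi1* (triose phosphate isomerase) at 3.20, *Pfkl* (a phosphofructokinase subunit) at 2.11 and *Pklr* (pyruvate kinase) at 0.984. *Ldha* (lactate dehydrogenase A), *Gpi1* (glucose phosphate isomerase) and *Pgam1* (phosphoglycerate mutase) were at 0.201, 0.191 and 0.0754. In that order *Gapdh*, *Aldoa*, *Tpi1* and *Pfkl* each overlapped the next one over the 4 libraries, as did *Ldha* and *Gpi1*, whereas *Bpgm*, *Hk1*, *Pklr* and *Gpi1* did not overlap the next one.

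In *Ypel4*+/+ Ortho-E the order began again with *Bpgm* at 2849 and *Hk1* at 47.4 CPM per kilobase. On this scale, which rests on the annotated exon lengths, no other member exceeded 2.85, the level of *Aldoa*. The remaining order was *Tpi1* at 2.20, *Gapdh* at 1.88, *Gpi1* at 1.53, *Pgam1* at 0.625, *Pfkl* at 0.609, *Pklr* at 0.2 and *Ldha* at 0.165, and each of these overlapped its neighbour. Of the summed level of the 10 members per kilobase, *Bpgm* made up 69.2% ± 11.7 (SD, n = 4) in *Ypel4*+/+ Poly-E and 98.0% ± 0.524 in *Ypel4*+/+ Ortho-E. The *Ypel4*-/- shares of *Bpgm* were 66.2% ± 7.65 (Poly-E) and 97.8% ± 0.473 (Ortho-E). None of these shares was corrected for windows that could not be counted, and all rest on the annotated exon lengths. All 10 members together took 0.153% ± 0.0340 of the counts of a *Ypel4*+/+ Poly-E library and 0.677% ± 0.0797 of those of a *Ypel4*+/+ Ortho-E library.

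**Figure D1:**
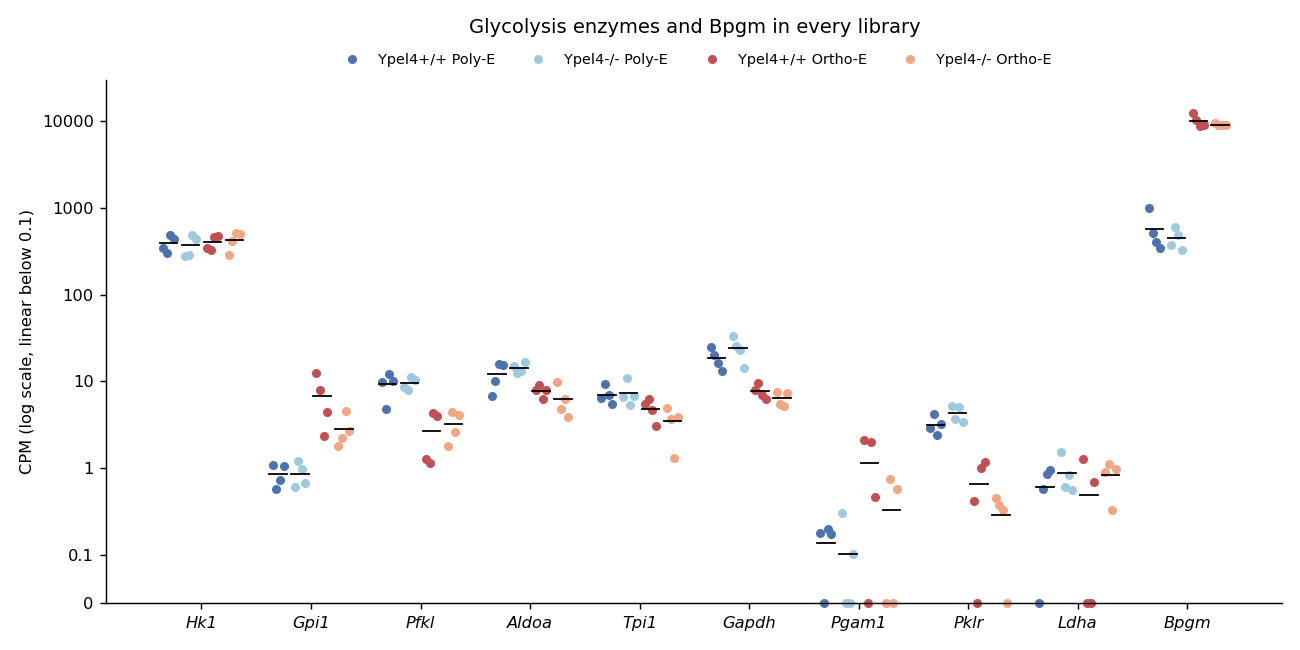
CPM of each of the 10 members (log scale, linear below 0.1) in every library. Points are libraries, 4 in each group, and black bars are group means. *Bpgm* runs from 329 to 1009 CPM in Poly-E and from 8870 to 12359 CPM in Ortho-E, *Hk1* lies between 279 and 521 CPM in all 16 libraries, and the other members stay below 34 CPM.

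*Bpgm* rose from Poly-E to Ortho-E with the largest log2 fold change of the members tested, in both genotypes. Its CPM in the 4 *Ypel4*+/+ Poly-E libraries were 1009, 523, 405 and 348, and in the 4 *Ypel4*+/+ Ortho-E libraries 12359, 10476, 8870 and 9186. The *Ypel4*-/- Poly-E libraries had 375.5, 608.5, 490 and 329 CPM, and the *Ypel4*-/- Ortho-E libraries 9604, 9033, 9091 and 9054 CPM. Every Ortho-E library lay above every Poly-E library. The log2 fold change of Ortho-E over Poly-E was 4.19 (standard error, SE, 0.41, adjusted p = 7.79e-05) in *Ypel4*+/+ and 4.54 (SE 0.15, adjusted p = 4.66e-20) in *Ypel4*-/- cells. Adjusted p-values are Benjamini-Hochberg values over all genes from the quasi-likelihood test of edgeR, unless another tool is named. By mean CPM, *Bpgm* ranked 165th among all genes in *Ypel4*+/+ Poly-E and 18th in *Ypel4*+/+ Ortho-E.

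*Ypel4*+/+ Poly-E replicate 1 held the highest Poly-E level of *Bpgm*. The same library was also the highest of its group for *Alas2*, the first enzyme of heme synthesis in erythroid cells, at 4474 against 2873 to 3546 CPM, and for *Bnip3l* at 926 against 456 to 566 CPM. Without it the log2 fold change of *Bpgm* in *Ypel4*+/+ cells was 4.75. The part of these differences in the level of *Bpgm* was not tested.

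The 5 genes whose log2 CPM followed *Bpgm* most closely over the 16 libraries were *Cat* (catalase), *Ube2b*, *Ube2f*, *Nt5c3* and *Xpo7*, with Pearson's r from 0.9988 to 0.9997. The 16 points fall into the 8 Poly-E and the 8 Ortho-E libraries, and each library shares its depth and scaling across genes, so these values describe the difference between the populations. Among the members, *Gpi1* was closest to *Bpgm* (r = 0.85), *Pklr* and *Gapdh* were closest to each other (r = 0.82), *Pfkl* and *Aldoa* were closest to *Pklr* (r = 0.81 and r = 0.73), and *Tpi1* was closest to *Gapdh* (r = 0.75). *Pgam1* was closest to *Bpgm* at r = 0.45, *Ldha* to *Aldoa* at r = 0.25 and *Hk1* to *Pgam1* at r = 0.23.

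In *Ypel4*+/+ cells, 3 of the 10 members rose from Poly-E to Ortho-E and 4 fell. *Bpgm*, *Gpi1* and *Pgam1* rose, where 26.4% of the 11747 genes tested were called higher, and *Pklr*, *Pfkl*, *Gapdh* and *Aldoa* fell, where 32.1% were called lower. *Hk1*, *Tpi1* and *Ldha* did not pass the test. In *Ypel4*-/- cells *Bpgm* and *Gpi1* were called higher, where 29.5% of 11973 genes were, and *Pklr*, *Gapdh*, *Pfkl*, *Aldoa* and *Tpi1* lower, where 31.5% were. *Pgam1* had fewer than 10 counts over the 8 *Ypel4*-/- libraries and was not tested there. The median log2 fold change over the members tested was −0.45 in *Ypel4*+/+ and −0.93 in *Ypel4*-/- cells, beside −0.19 and −0.09 over all genes tested.

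These are shares of the RNA in a library, so fewer transcripts in each cell and fewer cells with the transcript cannot be told apart. They also rest on the scaling: the TMM factors were 1.45 to 1.64 in Poly-E and 0.606 to 0.726 in Ortho-E. Scaled by library totals alone, the median log2 fold change of all genes became −1.45 in *Ypel4*+/+ and −1.47 in *Ypel4*-/- cells. Of the 6874 genes called in *Ypel4*+/+ cells 3101 were higher and 3773 lower, and with library totals 1217 were higher and 7087 lower. In *Ypel4*-/- cells 3538 were higher and 3767 lower, and with library totals 1337 and 7289. Against these medians the members kept much the same distance: *Bpgm* lay 4.38 above the median of all genes with library totals in *Ypel4*+/+ cells and *Gapdh* 1.09 below it (−1.09). Counted against 0, 2 members rose and 6 fell with library totals in *Ypel4*+/+ cells, and 1 rose and 6 fell in *Ypel4*-/- cells.

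**Figure D2:**
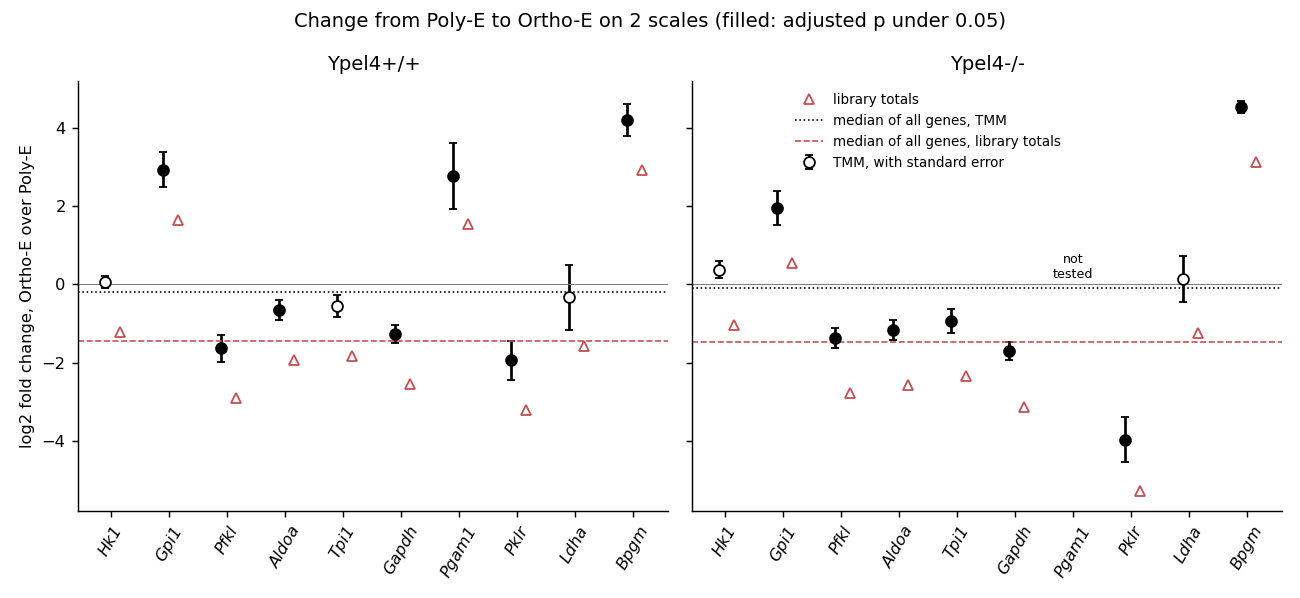
Log2 fold change of Ortho-E over Poly-E for each member in *Ypel4*+/+ (left) and *Ypel4*-/- cells (right). Circles with standard errors use TMM and are filled where the adjusted p was under 0.05, triangles use library totals, and the dotted and dashed lines are the medians of all genes on the 2 scales. *Bpgm* is the highest member in both panels and *Pklr* the lowest, and *Hk1* changes sign between the scales, from 0.07 to −1.21 in *Ypel4*+/+ cells.

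The first steps of glycolysis did not move together. *Hk1*, which commits glucose to the cell, had 345, 305, 487 and 444.5 CPM in *Ypel4*+/+ Poly-E and 347, 328, 466 and 477 CPM in *Ypel4*+/+ Ortho-E. In *Ypel4*-/- cells it had 279, 289.8, 484 and 435.5 CPM in Poly-E and 287, 422, 521 and 504.5 CPM in Ortho-E. In all 4 groups replicates 3 and 4 lay above replicates 1 and 2. The difference between the populations was smaller than this spread between mice, which the main fit does not remove, since it is not paired. That fit gave a log2 fold change of 0.07 (SE 0.15, adjusted p = 0.718) in *Ypel4*+/+ and 0.38 (SE 0.22, adjusted p = 0.173) in *Ypel4*-/- cells. Within a mouse, *Hk1* was higher in Ortho-E for every *Ypel4*-/- replicate and for every *Ypel4*+/+ replicate but replicate 3. In *Ypel4*-/- cells *Hk1* was called with the mouse as a block (0.39, adjusted p = 2.15e-05), without *Ypel4*-/- Poly-E replicate 3 (0.52, adjusted p = 0.0449) and without *Ypel4*-/- Ortho-E replicate 1 (0.51, adjusted p = 0.0124), and it was called with edgeR's own filter (0.53, adjusted p = 0.0296) and with no filter (0.32, adjusted p = 0.0446). With library totals the values of *Hk1* turned to −1.21 (adjusted p = 1.62e-06) and −1.04 (adjusted p = 4.88e-04).

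*Gpi1*, the isomerase of the next step, was counted with few reads, and was higher in Ortho-E. Its *Ypel4*+/+ Poly-E libraries held 6, 3, 11 and 12 counts and those of *Ypel4*+/+ Ortho-E 30, 14, 7 and 19, where the libraries span 2.33 to 12.7 CPM against 0.581 to 1.08 CPM in Poly-E. Its *Ypel4*-/- Poly-E libraries held 4, 6, 7 and 13 counts and the Ortho-E libraries 4, 6, 14 and 14, or 0.609 to 1.22 against 1.80 to 4.603 CPM. The groups did not overlap in CPM in either genotype. The log2 fold change was 2.92 (SE 0.445, adjusted p = 3.21e-06) in *Ypel4*+/+ and 1.94 (SE 0.43, adjusted p = 2.07e-04) in *Ypel4*-/- cells, and with library totals the second was 0.55 (adjusted p = 0.249).

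*Pfkl*, which encodes the liver-type subunit of phosphofructokinase, the main point of control of the pathway, fell. It had 9.88, 4.84, 12.3 and 10.1 CPM in *Ypel4*+/+ Poly-E and 1.27, 1.14, 4.33 and 3.97 CPM in *Ypel4*+/+ Ortho-E, with no overlap. The *Ypel4*-/- libraries ran from 7.90 to 11.2 CPM in Poly-E and from 1.80 to 4.45 CPM in Ortho-E. The log2 fold change was −1.63 (SE 0.35, adjusted p = 3.61e-04) in *Ypel4*+/+ and −1.37 (SE 0.27, adjusted p = 3.64e-05) in *Ypel4*-/- cells.

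*Aldoa*, which splits fructose 1,6-bisphosphate, was lower in Ortho-E by a smaller amount. It ranged from 6.83 to 15.8 CPM in *Ypel4*+/+ Poly-E and from 6.33 to 9.14 CPM in *Ypel4*+/+ Ortho-E, which overlap, and from 12.6 to 16.6 and from 3.86 to 9.90 CPM in *Ypel4*-/- cells, which do not. The log2 fold change was −0.65 (SE 0.25, adjusted p = 0.0303) in *Ypel4*+/+ and −1.17 (SE 0.24, adjusted p = 1.09e-04) in *Ypel4*-/- cells. The *Ypel4*+/+ call was lost with DESeq2 (adjusted p = 0.168), with DESeq2's size factors (0.0809), with edgeR's own filter (0.122) and without any of 6 single libraries: *Ypel4*+/+ Poly-E replicates 2, 3 and 4 and *Ypel4*+/+ Ortho-E replicates 1, 3 and 4. *Tpi1*, which interconverts the triose phosphates, ranged from 5.48 to 9.29 CPM in *Ypel4*+/+ Poly-E and from 3.03 to 6.28 CPM in *Ypel4*+/+ Ortho-E, and its log2 fold change of −0.56 (SE 0.28, adjusted p = 0.092) did not pass the test. In *Ypel4*-/- cells *Tpi1* fell by 0.93 on the log2 scale (SE 0.31, adjusted p = 0.00884), a call that was lost without *Ypel4*-/- Ortho-E replicate 3 (adjusted p = 0.05004).

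In the later steps of the pathway, which yields ATP, *Gapdh* and *Pklr* fell. *Gapdh*, the dehydrogenase of glyceraldehyde 3-phosphate, had 24.8, 20.3, 16.5 and 13.3 CPM in *Ypel4*+/+ Poly-E and 8.03, 9.71, 6.997 and 6.30 CPM in *Ypel4*+/+ Ortho-E. Its *Ypel4*-/- levels were 33.5, 25.5, 23.3 and 14.4 CPM in Poly-E and 7.65, 5.56, 5.26 and 7.33 CPM in Ortho-E. No Ortho-E library reached a Poly-E library. The log2 fold change was −1.26 (SE 0.23, adjusted p = 3.10e-05) in *Ypel4*+/+ and −1.71 (SE 0.23, adjusted p = 1.80e-07) in *Ypel4*-/- cells, and it stayed negative with DESeq2's size factors (−1.13 and −1.68) and with library totals (−2.54 and −3.13).

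*Pklr*, which encodes the pyruvate kinase of red cells and liver, had 16, 22, 36 and 37 counts in *Ypel4*+/+ Poly-E and 1, 0, 3 and 5 counts in *Ypel4*+/+ Ortho-E. The *Ypel4*-/- Poly-E libraries held 34, 18, 37 and 66 counts and the Ortho-E libraries 1, 1, 1 and 0. In CPM the Poly-E libraries lay between 2.38 and 5.18 and the Ortho-E libraries between 0 and 1.17. The log2 fold change was −1.94 (SE 0.50, adjusted p = 0.00156) in *Ypel4*+/+ and −3.96 (SE 0.58, adjusted p = 3.46e-07) in *Ypel4*-/- cells, the second resting on 3 counts in Ortho-E. The difference between these 2 changes had an unadjusted p of 0.0274 and an adjusted p of 1 for the interaction of genotype with population by edgeR.

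*Pgam1* and *Ldha* were near the limit of detection. *Pgam1*, which moves the phosphate of 3-phosphoglycerate, had 1, 0, 3 and 2 counts in *Ypel4*+/+ Poly-E, against 5, 0, 6 and 2 in *Ypel4*+/+ Ortho-E. Its log2 fold change of 2.76 (SE 0.83, adjusted p = 0.00573) passed the test although the groups overlap. The call was lost with library totals (1.54, adjusted p = 0.103) and without *Ypel4*+/+ Ortho-E replicate 3 (adjusted p = 0.05006). In *Ypel4*-/- mice *Pgam1* had 4 counts over the Poly-E libraries and 5 over the Ortho-E libraries. *Ldha*, which regenerates NAD+ by making lactate, had 27 counts over *Ypel4*+/+ Poly-E, 6 over *Ypel4*+/+ Ortho-E, 30 over *Ypel4*-/- Poly-E and 11 over *Ypel4*-/- Ortho-E. Its log2 fold change was −0.34 (SE 0.83, adjusted p = 0.751) and 0.13 (SE 0.59, adjusted p = 0.859), so a change within the width of these errors could not be told from none at this depth.

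Markers of other cells were also measured against the change of population. The 8 myeloid markers summed to 2.52 to 3.59 CPM in *Ypel4*+/+ Poly-E and to 5.49 to 20.5 CPM in *Ypel4*+/+ Ortho-E, with *Elane* at 0 in the latter and 2 of the 5 tested called higher. The 5 B cell markers summed to 23.6 to 34.6 and to 33.7 to 47.7 CPM, with 1 called higher. The 4 megakaryocyte markers summed to 27.5 to 35.6 and to 97.1 to 113 CPM, with *Itga2b* called higher and *Pf4* at 0 in Ortho-E. In *Ypel4*-/- cells 5 of the 6 myeloid markers tested, 4 of 5 B cell markers and 1 of 3 megakaryocyte markers were called higher in Ortho-E. Of all genes tested, 26.4% in *Ypel4*+/+ and 29.5% in *Ypel4*-/- cells were called higher. The part of these markers in the changes of the members was not tested. *Klf1* and *Gata1*, transcription factors of erythroid genes, fell in *Ypel4*+/+ cells, *Klf1* from 519 ± 34.0 to 384 ± 45.6 CPM and *Gata1* from 289 ± 11.7 to 228 ± 13.5 CPM, with log2 fold changes of −0.40 (adjusted p = 0.00512) and −0.30 (adjusted p = 0.0223). The *Gata1* call was lost with DESeq2 (adjusted p = 0.0613) and both calls with DESeq2's size factors (adjusted p = 0.0604 and 0.180) and with edgeR's own filter (adjusted p = 0.0860 and 0.234). Without 1 library the *Klf1* call ended for *Ypel4*+/+ Poly-E replicates 2 and 3 (−0.25 without replicate 3, adjusted p = 0.111). The *Gata1* call ended for Poly-E replicates 1 to 4 and Ortho-E replicates 2 and 3 (−0.19, −0.16 and −0.20 without Poly-E replicates 1, 3 and 4, adjusted p up to 0.267).

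The isozymes and remaining enzymes of the pathway were counted as a further list. Of 15 other glycolytic genes 8 were tested in *Ypel4*+/+ cells, 0 were called higher and 3 lower. The counts called in this and the following lists stand beside 26.4% of all genes tested called higher and 32.1% called lower. *Pfkm*, the muscle-type phosphofructokinase subunit, fell from 17.8 ± 2.58 to 3.28 ± 0.527 CPM (log2 fold change −2.42, SE 0.24, adjusted p = 1.19e-09). *Aldoc* and *Eno3* were called lower at −1.25 (adjusted p = 0.0475) and −0.85 (adjusted p = 0.0396), and both calls were lost with DESeq2 (adjusted p = 0.0813 and 0.110) and without any of 6 single libraries. For *Aldoc* these were *Ypel4*+/+ Poly-E replicates 1 to 4 and Ortho-E replicates 2 and 3 (adjusted p up to 0.178, with a value of −0.82 without Ortho-E replicate 3), and without Ortho-E replicate 4 it was −2.08. For *Eno3* they were Poly-E replicates 1, 3 and 4 and Ortho-E replicates 1, 2 and 3 (adjusted p up to 0.126). *Pgk1* and *Eno1*, which act between *Gapdh* and *Pklr* and have 67.5% and 65.4% of their windows copied elsewhere, had 29 and 34 counts over *Ypel4*+/+ Poly-E and 2 and 11 over *Ypel4*+/+ Ortho-E. *Pkm* had 38 and 17 counts and *Pfkp* 17 and 11, *Hk2* had 2 and 0, and *Ldhb* had 0 counts in all 4 groups, which in *Ypel4*+/+ Poly-E allows up to 3 counts over the group. *Pgk1* was at −1.97 (adjusted p = 0.0850), and was called without *Ypel4*+/+ Ortho-E replicate 4 (−5.28, adjusted p = 0.0313) and with library totals (−3.13, adjusted p = 0.00255). *Eno1* (0.13, adjusted p = 0.867), *Pkm* (0.54, adjusted p = 0.445) and *Pfkp* (0.94, adjusted p = 0.293) did not pass the test.

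Of the 6 genes of glucose and lactate transport, 5 were tested, with 3 called higher and 1 lower. *Slc16a1*, a monocarboxylate transporter that exports lactate, rose from 616 ± 56.2 to 1833 ± 104 CPM (log2 fold change 1.61, SE 0.12, adjusted p = 5.43e-12). *Bsg*, its partner at the membrane, was at 1257 ± 284 and 1889 ± 517 CPM (0.62, SE 0.20, adjusted p = 0.0167), and with library totals at −0.66. *Slc16a3*, another lactate transporter, rose by 1.07 (adjusted p = 0.0108), and with library totals was at −0.21 (adjusted p = 0.596). *Slc2a4*, an insulin-responsive glucose transporter, was at 185 ± 7.34 and 192 ± 8.25 CPM (0.09, adjusted p = 0.522). *Slc2a3* fell by 1.27 (adjusted p = 0.0143), and *Slc2a1*, another glucose transporter, had 1 count in each of these groups. Leaving out 1 library ended the call of *Bsg* (without *Ypel4*+/+ Poly-E replicate 1, adjusted p = 0.0615), of *Slc16a3* (without *Ypel4*+/+ Ortho-E replicate 4, adjusted p = 0.123) and of *Slc2a3* (without *Ypel4*+/+ Poly-E replicate 3 or 4 or Ortho-E replicate 1 or 4, adjusted p up to 0.0735).

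Among 10 genes that control the flux, 8 were tested, 3 called higher and 3 lower. *Pfkfb2*, which sets the level of fructose 2,6-bisphosphate, the activator of phosphofructokinase, rose from 29.3 ± 3.47 to 93.9 ± 7.40 CPM (1.72, SE 0.13, adjusted p = 1.53e-11), and *Pfkfb4* from 0.925 ± 0.252 to 3.24 ± 2.36 CPM (1.84, adjusted p = 0.00154). Of the kinases that inactivate pyruvate dehydrogenase, *Pdk2* rose (1.55, adjusted p = 3.87e-07) and *Pdk3* fell (−1.54, adjusted p = 5.84e-07). With library totals *Pfkfb4* and *Pdk2* were at 0.57 and 0.26 and no longer called, and *Pfkfb4* was not called without *Ypel4*+/+ Ortho-E replicate 3 (1.17, adjusted p = 0.0596).

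All 7 genes of the pentose phosphate pathway, which makes NADPH from glucose 6-phosphate, were tested, with 2 called higher and 3 lower. *Taldo1* (transaldolase) rose from 251 ± 15.2 to 799 ± 31.6 CPM (1.71, SE 0.12, adjusted p = 1.01e-12), and *Pgd*, the second dehydrogenase of the pathway, from 3.01 ± 0.706 to 9.48 ± 2.24 CPM (1.76, adjusted p = 2.29e-06; 0.46 and not called with library totals). *Rpia*, ribose 5-phosphate isomerase, fell from 38.7 ± 6.25 to 7.74 ± 2.695 CPM (−2.26, adjusted p = 3.42e-10) and *Pgls* fell by 1.28 (adjusted p = 0.0112). Of 10 hypoxia-inducible genes 5 were tested and 3 were called higher: *Bnip3l*, which takes part in the removal of mitochondria, at 3.13, *Ddit4* at 2.45 and *Kdm3a*, a histone demethylase, at 1.91 (adjusted p = 4.38e-08, 9.56e-10 and 6.15e-12). *Bnip3l* rose from 604 ± 221 to 5170 ± 595 CPM.

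**Figure D3:**
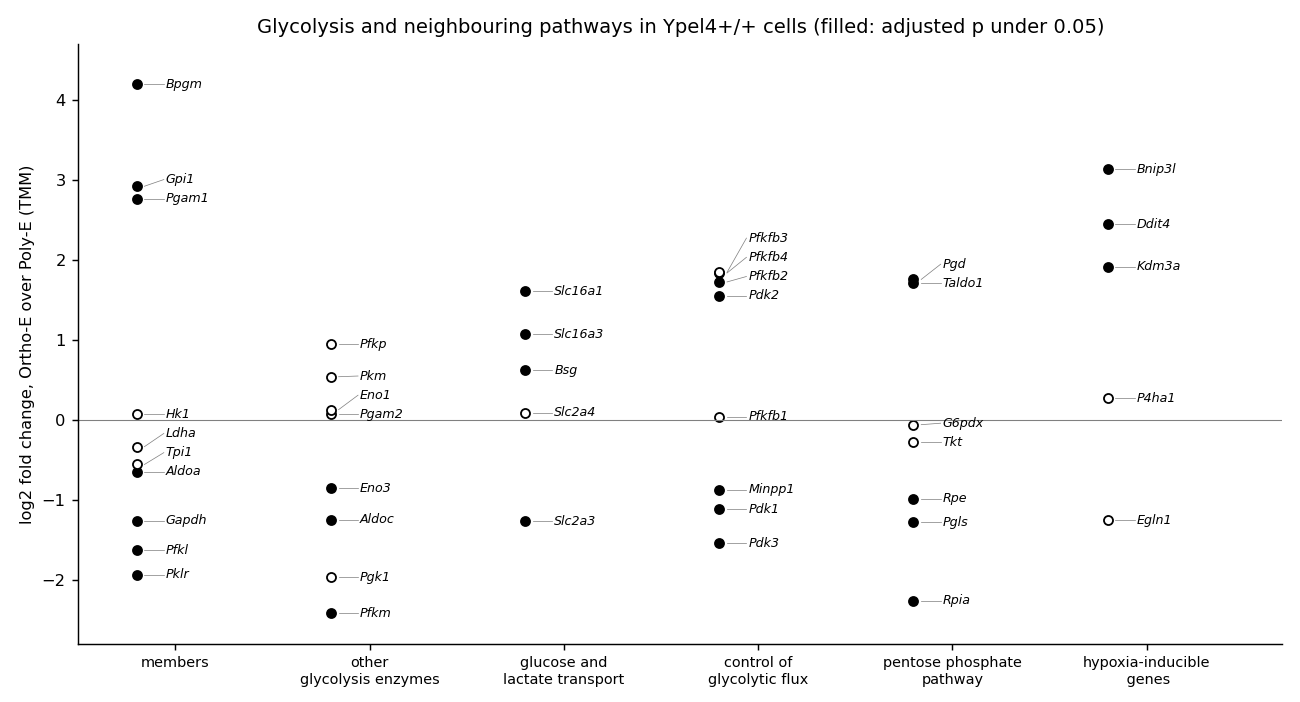
Log2 fold change of Ortho-E over Poly-E (TMM) in *Ypel4*+/+ cells for the members and the tested genes of 5 further lists. Each point is a gene, filled where the adjusted p was under 0.05. *Bpgm* at 4.19 is the highest of the genes shown and *Pfkm* at −2.42 the lowest, and every list but the hypoxia-inducible genes and the other glycolysis enzymes holds genes called in both directions.

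The same lists were counted in *Ypel4*-/- cells, where 29.5% of all genes tested were called higher and 31.5% lower. Of the other glycolytic genes, 0 were called higher and 2 lower of 8 tested, *Pfkm* at −1.79 (adjusted p = 8.78e-09) and *Aldoc* at −1.59 (adjusted p = 0.0126). The *Aldoc* call was lost without *Ypel4*-/- Poly-E replicate 4 (−1.33, adjusted p = 0.0618), and the value was −4.08 without *Ypel4*-/- Ortho-E replicate 4. Transport had 3 called higher and 1 lower of 6, the control of flux 3 and 2 of 8, the pentose phosphate pathway 2 and 2 of 7 and the hypoxia-inducible genes 3 and 0 of 5. *Slc16a1* rose by 1.74 (adjusted p = 5.39e-15), *Pfkfb2* by 1.89 (adjusted p = 6.37e-13), *Taldo1* by 1.81 (adjusted p = 3.19e-15) and *Bnip3l* by 3.39 (adjusted p = 4.96e-21).

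The study compared genotypes to ask whether loss of *Ypel4* changes expression in each population, and no member was called in either. In Poly-E, 0 of 10 members were called by edgeR's test, where 0.00807% of the 12395 genes tested were (*Ypel4* alone), and 0 had an unadjusted p under 0.05. In Ortho-E, 0 of 10 were called, where 0.0285% of 10521 genes were (*Ypel4*, *En2* and *Gm19426*), and 1 had an unadjusted p under 0.05. DESeq2 called 0 members in both populations. The *Ypel4*-/- and *Ypel4*+/+ libraries overlapped in CPM for all 10 members in both populations, against 2.09% of all tested Poly-E genes, and 2.35% of the Ortho-E ones, whose groups did not overlap. *Ypel4*+/+ and *Ypel4*-/- libraries share only a number, which does not establish pairs. In Poly-E same-numbered libraries correlated at 0.15 to 0.44 and others at up to 0.39. Of the 4 *Ypel4*+/+ Poly-E libraries, 1 was closest to its own number. With the number as a block 4 genes were called in place of 1, again with 0 members among them (*Hist1h2bg*, *Clp1*, *En2* and *Usp26*, named after their values were seen). *Ypel4* was not one of these 4: with the block its log2 fold change was −5.19 (adjusted p = 0.284). The 5 B cell markers summed to 51.7 to 75.6 CPM in *Ypel4*-/- and 33.7 to 47.7 CPM in *Ypel4*+/+ Ortho-E, with 3 of 5 at an unadjusted p under 0.05 and 0 called, and their part in the members' values was not tested.

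*Bpgm* differed by a log2 fold change of −0.34 (95% interval −1.09 to 0.41) in Poly-E and −0.13 (−0.34 to 0.07) in Ortho-E. Without *Ypel4*+/+ Poly-E replicate 1 the Poly-E value turned to 0.08. *Hk1* differed by −0.09 (−0.48 to 0.31) in Poly-E and 0.11 (−0.18 to 0.41) in Ortho-E, and *Gapdh* by 0.38 (−0.14 to 0.89) and −0.21 (−0.74 to 0.33). For these members the Ortho-E intervals leave out a change of 2-fold, a log2 value of 1, in either direction.

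The widest intervals belonged to the members with the fewest counts. *Gpi1* in Ortho-E, the member with an unadjusted p under 0.05, was at 6.86 ± 4.53 CPM in *Ypel4*+/+ and 2.83 ± 1.24 CPM in *Ypel4*-/- libraries (log2 fold change −1.15, 95% interval −2.02 to −0.28, unadjusted p = 0.0175, adjusted p = 0.995). *Pklr* was 0.47 (−0.03 to 0.97) in Poly-E and −1.51 (−3.42 to 0.40) in Ortho-E, and *Pgam1* −0.52 (−2.45 to 1.41) and −1.55 (−3.31 to 0.21). *Gpi1* in Poly-E was −0.07 (−0.90 to 0.75). *Aldoa*, *Tpi1*, *Pfkl* and *Ldha* had values between 0.02 and 0.29 in Poly-E and between −0.43 and 0.65 in Ortho-E. Of the 5 further lists, 0 genes were called in either population. Groups without overlap were found for 2 of their 34 genes tested in Poly-E, beside 2.09% of all genes tested, and for 0 of 30 in Ortho-E, beside 2.35%. *Pgk1* and *Eno1*, the 2 in Poly-E, were higher in each *Ypel4*-/- than in each *Ypel4*+/+ Poly-E library, at log2 fold changes of 0.76 and 0.70 with an adjusted p of 0.9998 each.

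**Figure D4:**
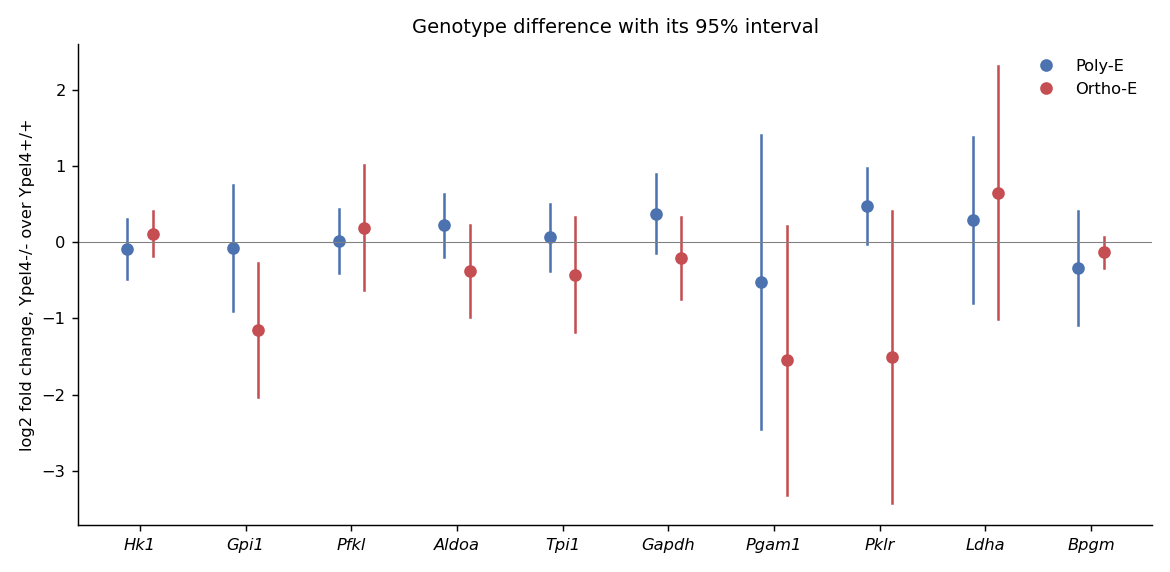
Log2 fold change of *Ypel4*-/- over *Ypel4*+/+ for each member, in Poly-E (blue) and Ortho-E (red). Points are edgeR estimates from 4 against 4 libraries and lines their approximate 95% intervals, by the normal distribution. All intervals hold 0 except that of *Gpi1* in Ortho-E, from −2.02 to −0.28, whose adjusted p is 0.995.

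Whether the genotype difference itself differed between the populations was tested by the interaction over all 16 libraries. Of 13318 genes 0% were called, with 363 at an unadjusted p under 0.05, while by DESeq2 there was 1 call (*Lrrc8d*). Of the members 0 were called by either tool, and only *Pklr* (log2 value −2.13, SE 0.93) was under 0.05 before adjustment with edgeR. *Bpgm* was at 0.19 (SE 0.41) and *Hk1* at 0.19 (SE 0.32).

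*Gapdh* was the reference against which the study measured *Ypel4* by quantitative PCR, so *Ypel4* was also set against *Gapdh* in the counts. In *Ypel4*+/+ Poly-E there were 28.8, 24, 36.4 and 37.5 counts of *Ypel4* for each count of *Gapdh*, and in *Ypel4*+/+ Ortho-E 563, 443, 747 and 848. These counts were not divided by gene length, and 80.3% of the windows of *Gapdh* were open to loss, against 0% of those of *Ypel4*. The sizes of the ratios are therefore not ratios of transcript abundance and cannot be set beside the PCR values. The log2 difference of Ortho-E minus Poly-E was 4.34, or 20.2-fold (exact permutation test over the 70 splits, two-sided p = 0.0286, the smallest that 4 against 4 allows). In CPM the log2 difference of *Ypel4* was 3.12, or 8.67-fold (exact permutation test, p = 0.0286). Within mice, an exact sign-flip test over the 4 differences gave p = 0.125, the smallest that it allows.

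The size of the rise of *Ypel4* depended on which member served as reference. It was 5.26 on the log2 scale against *Pklr*, which had 9 counts over *Ypel4*+/+ Ortho-E and 0 in 1 library, 4.95 against *Pfkl*, 3.64 against *Aldoa* and *Tpi1* alike and 3.08 against *Hk1* (exact permutation test, p = 0.0286 each). Against *Gpi1*, *Pgam1* and *Ldha*, with 70, 13 and 6 counts over *Ypel4*+/+ Ortho-E, it was 0.40 (p = 0.543), 0.79 (p = 0.40) and 3.10 (p = 0.0857) by the same exact permutation test. Against *Bpgm* the sign was the opposite, at −1.16 (exact permutation test, p = 0.0286), and against the sum of the 9 other members, most of which is *Bpgm*, it was −0.32 (exact permutation test, p = 0.171).

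**Figure D5:**
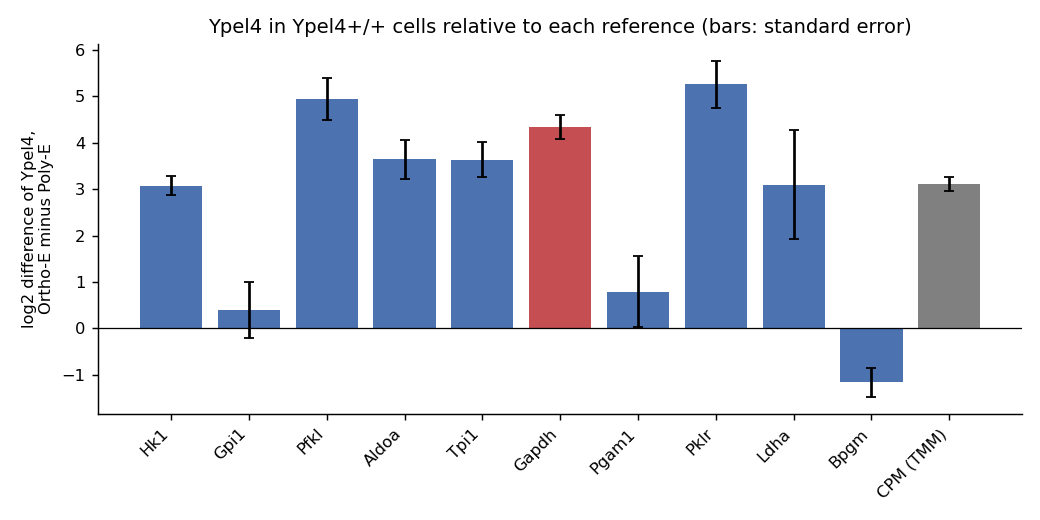
Log2 difference of *Ypel4* between *Ypel4*+/+ Ortho-E and Poly-E, with each member as the reference and, in grey, in CPM. Bars are differences of the means of 4 libraries and lines their standard errors. The difference against *Gapdh* (red) is 4.34, that in CPM 3.12 and that against *Bpgm* −1.16.

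*Bpgm* and *Pgam1* encode mutases of one family. The first makes 2,3-bisphosphoglycerate in the side path, and the second moves the phosphate of 3-phosphoglycerate in glycolysis itself. Per kilobase there were 1911, 2756, 892 and 818 units of *Bpgm* for each of *Pgam1* in *Ypel4*+/+ Poly-E and 2714, 18725, 2089.8 and 8039 in *Ypel4*+/+ Ortho-E, with 0.5 added to each count. The log2 difference was 1.95, or 3.86-fold (exact permutation test, two-sided p = 0.0857), and the groups overlapped. The denominators are 0 to 6 counts, and 40.6% of the windows of *Pgam1* were open to loss. The sizes of these ratios also rest on the annotated exon lengths.

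Sequence before the start of the gene is shown for *Bpgm* and *Pklr*, the members with the largest log2 fold changes in each direction. RefSeq promoter windows (build GRCm38.p6) were found for all 10 members, 15 windows in all, and the 250 bases before each start were searched on both strands for the GATA motif (AGATAA or AGATAG or TGATAA or TGATAG), the CACCC motif (CCNCNCCC) and the core of hypoxia response elements (ACGTG or GCGTG). The *Pklr* window before the annotated gene, chr3:89135892-89136141 on the + strand, is printed whole. A further *Pklr* window, chr3:89136373-89136622 (+), lies inside the annotated gene, held no match and is not printed. Of the *Bpgm* window only chr6:34476106-34476206 (+) is printed, since its other 149 bases lie inside the annotated gene. Capitals mark a GATA match, and both are written 5′ to 3′.
Pklr: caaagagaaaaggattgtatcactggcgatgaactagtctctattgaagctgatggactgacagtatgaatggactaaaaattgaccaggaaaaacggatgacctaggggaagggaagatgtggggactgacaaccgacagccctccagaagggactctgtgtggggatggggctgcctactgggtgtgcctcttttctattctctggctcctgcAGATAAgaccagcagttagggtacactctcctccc
Bpgm: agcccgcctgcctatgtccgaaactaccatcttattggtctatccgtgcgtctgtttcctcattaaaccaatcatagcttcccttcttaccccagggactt

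The *Pklr* match began 35 bases before the start and is the only match in that window. The *Bpgm* window held no GATA or hypoxia match and 1 CACCC match, which lies in the part inside the annotated gene. Windows with a GATA match were found for 3 of the 10 members, *Pklr*, *Gapdh* and *Aldoa*, with a CACCC match for 8 and with a hypoxia match for 6. By window these were 3, 10 and 8 of the 15 windows, beside 26.5%, 45.9% and 38.6% of all 32851 windows. A match describes these letters only, and no binding was measured.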

How the data were processed

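Polychromatic and orthochromatic erythroblasts of *Ypel4*+/+ and *Ypel4*-/- mice gave 16 libraries in 4 groups. The authors deposited raw gene counts, made with featureCounts 1.6.4 on GRCm38 from read pairs over exons, without strand. Reads that aligned to several places or over several genes were not counted.

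Counts were tested with edgeR 4.0.16 (R 4.3.3; TMM, robust quasi-likelihood fit, genes with a total of 10 counts or more in a fit, Benjamini-Hochberg adjustment over all genes, threshold 0.05). Standard errors are the log2 fold change divided by the square root of F. DESeq2 1.42.0, other scalings and filters, blocks and left-out libraries were alternatives. Ratios were compared by exact permutation over 70 splits after adding 0.5 to each count. The scripts were tested on simulated counts.

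The members, gene lists and tests were chosen with earlier results of these data known. Genes named outside the members were, in each further list, up to 4 called in Ortho-E against Poly-E of *Ypel4*+/+ cells with the largest log2 fold changes, together with *Pgk1*, *Eno1*, *Pkm*, *Hk2*, *Pfkm*, *Pfkp*, *Ldhb*, *Klf1* and *Gata1*, and the 5 genes whose log2 CPM (prior count 2) correlated best with *Bpgm*. *Slc2a4* and *Slc2a1* were added after their values were seen. P-values set the difference between groups against the spread between these libraries. The main fits of Ortho-E against Poly-E and of the interaction have no term for the mouse. The Poly-E and Ortho-E libraries of a mouse entered these fits as independent. Poly-E and Ortho-E libraries with the same number were read as 1 mouse, from the deposited library names. Their deviations correlated at 0.20 to 0.34 in *Ypel4*+/+ and 0.05 to 0.30 in *Ypel4*-/-. Between genotypes only a number is shared, which does not establish pairs. Same-numbered libraries correlated at 0.15 to 0.44 in Poly-E, where other numbers reached 0.39 and 1 of 4 *Ypel4*+/+ libraries was closest to its own number. In Ortho-E same-numbered libraries correlated at −0.05 to 0.16.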

Additional observations from a re-analysis of the deposited data

Results flagged for a closer look

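Among 40 groups of 4 libraries, 2 had a library whose gap to the nearest other, divided by the range, was over Dixon's 95% critical value. Chance flags about 1 in 20 groups. *Pgam1* was at 0 CPM in *Ypel4*+/+ Poly-E replicate 2, against 0.174, 0.180 and 0.199 CPM in the other libraries of that group. *Bpgm* was at 9604 CPM in *Ypel4*-/- Ortho-E replicate 1, against 9033, 9054 and 9091 CPM in the others.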

How the results depend on the processing

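Of the log2 fold changes refitted under the alternatives, 1573 kept their direction and side of the threshold, 60 lost and 21 gained the call and 47 changed sign. Of the counts and ratios, 184 were the same, 12 moved, 1 lost its call and 1 changed sign. The causes were not tested.

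With library totals in *Ypel4*+/+ cells, Ortho-E against Poly-E was −1.21 for *Hk1*, −0.66 for *Bsg*, −1.13 for *Eno1*, −0.30 for *Pfkp*, −0.74 for *Pkm* and −0.21 for *Slc16a3*. In *Ypel4*-/- cells it was −1.04 for *Hk1*, −0.84 for *Bsg*, −0.35 for *Pfkp*, −0.33 for *Pkm*, −0.31 for *Slc16a3*, −1.24 for *Ldha* and −0.11 for *Pfkfb4*. *Ldha* was −0.006549 there in the fit of all 16 libraries and *Eno3* 0.05297 with edgeR's own filter. *Ypel4* against the other 9 members was −0.32.

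Genes called between genotypes in Poly-E were 2 with DESeq2, 4 with no filter, 4 with the replicate block (where 1 of 4 *Ypel4*+/+ libraries correlated best with its own number), 3 in the fit of all 16 libraries and 3 with a term for replicates 1 and 2 against 3 and 4, a term chosen after seeing the data; leaving out a library gave 1 to 2. In Ortho-E they were 5 with no filter and 13 with the replicate block, where 2 of 4 *Ypel4*+/+ libraries correlated best with their own number. In neither population do the numbers establish pairs of libraries between genotypes. The interaction gave 1 gene with DESeq2, 1 with the mouse as replicate block and 0 to 1 without a library. With edgeR's own filter 4 members were called in *Ypel4*+/+ cells. The main fit called 3 higher and 4 lower there, beside 26.4% and 32.1% of all genes tested. The log2 difference of *Ypel4* per *Gapdh* was 4.34 with the mouse as block (exact sign-flip test, p = 0.125, the smallest 4 mice allow). Apart from the values given here and in the report, the block changed no call of a member. A ratio to *Pgam1* without an added count gave no value, since *Pgam1* is at 0 in some libraries.

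Leaving out 1 library, these signs changed. In Poly-E between genotypes the ranges were −0.23 to 0.02102 for *Hk1*, −0.22 to 0.09015 for *Gpi1*, −0.16 to 0.19 for *Pfkl*, −0.13 to 0.20 for *Tpi1*, −0.08014 to 0.57 for *Ldha* and −0.52 to 0.08489 for *Bpgm*, and in Ortho-E −0.00999 to 0.48 for *Pfkl*. From Poly-E to Ortho-E they were −0.001958 to 0.30 for *Hk1*, −0.99 to 0.09237 for *Ldha*, −0.55 to 0.49 for *Eno1* and −0.19 to 0.97 for *Pkm* in *Ypel4*+/+, and −0.07836 to 0.48 for *Ldha* and −0.43 to 0.08887 for *Eno3* in *Ypel4*-/- cells. In the interaction they were −0.04978 to 0.43 for *Pfkl*, −0.05541 to 1.03 for *Ldha* and −0.15 to 0.42 for *Bpgm*. Depth limits *Pgam1*, *Pklr*, *Ldha* and *Gpi1* most, with at most 70 counts of them over the 4 libraries of an Ortho-E group.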
